A study of Mus musculus with 24 samples.

Results

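The mitosis and spindle genes described here are 45 genes of the G2 and M phases of the cell cycle, chosen by name for their known roles. No rule on their values was used, but the choice was made with earlier results of these data known. All 45 were measured, each by a probe set that carries its symbol alone, among the 21072 genes tested. RNA came from neural stem cell cultures of the mouse subventricular zone (SVZ), the germinal layer beside the lateral ventricles. The wild-type cultures came from mice 818, 862 and 870, and the cultures labelled Mll1-deleted came from mice 489, 814 and 858. On day 0 the cultures grew in a medium with serum, epidermal growth factor (EGF), fibroblast growth factor (FGF), N2 supplement and bovine pituitary extract. They were then differentiated in a medium that kept the N2 supplement and the pituitary extract and left out the serum, EGF and FGF, and were sampled on days 1, 2 and 4. Each mouse gave 1 Affymetrix array a day, so that 24 arrays form 8 groups of 3. All cultures had been passaged serially before, and the sources used here do not give how, when or in which cells Mll1 was deleted.

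The protein Mll1 methylates histone H3 at lysine 4, and its gene is now called Kmt2a. The intensity of its probe set lay between 240 and 648 in the 12 wild-type arrays and between 373 and 682 in the 12 arrays labelled Mll1-deleted, so it was not lower in the latter. The deleted part of the gene is not given in the sources used here, so this probe set does not check the genotype labels. The 8 neural stem cell markers, among them Nes, Sox2 and Fabp7, were above the floor of the arrays in every group, with a summed intensity of 29000 to 39200. Here the floor is the lower quartile of an array, 23.3 to 28.3 over the arrays. No group mean of a mitosis gene lay below it. A total of 2 single values did, both in wild-type cultures on day 4. The median intensity of all probe sets ranged from 75.6 to 87.1 between arrays.

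Genes of mitosis are transcribed late in each cell cycle. The MuvB core complex, bound with B-Myb and then with Foxm1, activates them in G2 at promoters that hold a cell cycle genes homology region (CHR), while the DREAM complex represses the same promoters in cells that have left the cycle. Their products enter mitosis through cyclin A2, cyclin B and the kinase Plk1, attach chromosomes to the spindle, hold anaphase back until all are attached, and divide the cell. In the SVZ, stem cells and the transit-amplifying cells they give rise to divide in response to EGF and FGF.

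Promoter sequences were found for 38 of the 45 genes in RefSeq (build GRCm38.p6), as 41 windows of 300 bases from 250 before to 50 after a transcript start. Foxm1, Ccna2, Cdc25c, Aurkb, Kif20a, Tpx2 and Incenp were not matched. The following stretches, from 200 bases before to 30 after the start, are shown for genes picked by name, whose values are described below. Like all 45 genes, they fell by day 4. Capitals mark the CHR element TTTGAA, its palindromic form TTCGAA and the CCAAT box, on either strand.
Ccnb2, chr9:70421525-70421754, minus strand: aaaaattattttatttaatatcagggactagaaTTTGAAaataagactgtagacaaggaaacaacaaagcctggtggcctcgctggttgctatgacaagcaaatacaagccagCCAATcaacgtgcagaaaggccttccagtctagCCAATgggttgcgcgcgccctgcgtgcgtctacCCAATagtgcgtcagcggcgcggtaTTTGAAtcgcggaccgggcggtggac
Plk1, chr7:122159235-122159464, plus strand: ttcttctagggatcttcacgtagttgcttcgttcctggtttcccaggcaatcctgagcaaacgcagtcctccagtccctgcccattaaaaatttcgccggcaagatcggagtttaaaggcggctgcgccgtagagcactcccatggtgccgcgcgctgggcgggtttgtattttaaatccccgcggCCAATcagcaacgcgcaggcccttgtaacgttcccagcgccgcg
Cdc20, chr4:118437314-118437543, minus strand: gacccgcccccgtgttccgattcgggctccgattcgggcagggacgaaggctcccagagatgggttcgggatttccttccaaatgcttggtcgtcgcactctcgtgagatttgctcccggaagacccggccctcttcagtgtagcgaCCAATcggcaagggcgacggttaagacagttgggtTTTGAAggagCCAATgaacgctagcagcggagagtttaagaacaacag
Bub1, chr2:127831830-127832059, minus strand: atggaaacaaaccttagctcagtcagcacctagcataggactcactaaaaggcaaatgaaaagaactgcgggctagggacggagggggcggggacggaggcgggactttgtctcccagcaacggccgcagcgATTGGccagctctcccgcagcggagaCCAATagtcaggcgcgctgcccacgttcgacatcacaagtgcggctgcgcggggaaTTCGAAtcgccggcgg

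With positions counted from the transcript start, Ccnb2 held CCAAT boxes beginning at -87, -54 and -21, and TTTGAA from -167 to -162 and from 5 to 10. Cdc20 held TTTGAA from -18 to -13, between CCAAT boxes beginning at -53 and -8. Bub1 held TTCGAA from 15 to 20 and CCAAT at -42, with another on the opposite strand at -68. Plk1 held CCAAT at -14, and its TTTGAA from 31 to 36 lay just past the stretch shown. Over the whole windows and both strands, TTTGAA or TTCGAA occurred in 33 of the 41 promoters (80.5%), against 19.2% of all 32851 promoters of the same length. CCAAT occurred in 29 (70.7%), against 37.4% of all promoters, and CCAAT together with a CHR element in 27 (65.9%), against 7.52%. The letters TTCCCGCC, a form of the E2F site, occurred in 0 of the 41 windows and in 2.19% of all. Matches overlapped one another in 2 of the 41 promoters. The median GC content was 59.0% in these promoters and 52.7% in all. A match describes letters and not a bound site, and a missing match says only that these letters are not in the window.

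In the group means of wild-type cultures the mitosis genes fell in 2 steps, between day 0 and day 1 and again between day 2 and day 4. By day 1 all 45 estimates were below day 0 and 44 passed the test given below, with a median log2 difference of -1.21, or 2.32-fold. Between day 1 and day 2 the median difference was -0.05, and it ran from -0.276 to 0.067 when single mice were left out. The mice differed over this interval. Relative to day 0 of the same mouse, the median of the set went from -0.94 to -1.31 in mouse 818. It went from -1.22 to -1.47 in mouse 870, and rose from -1.43 to -1.05 in mouse 862. By day 4 all 45 genes were lower than on day 0, with a median of -2.89, or 7.39-fold. In these bulk samples, fewer dividing cells and less RNA per dividing cell cannot be told apart.

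**Figure D1:**
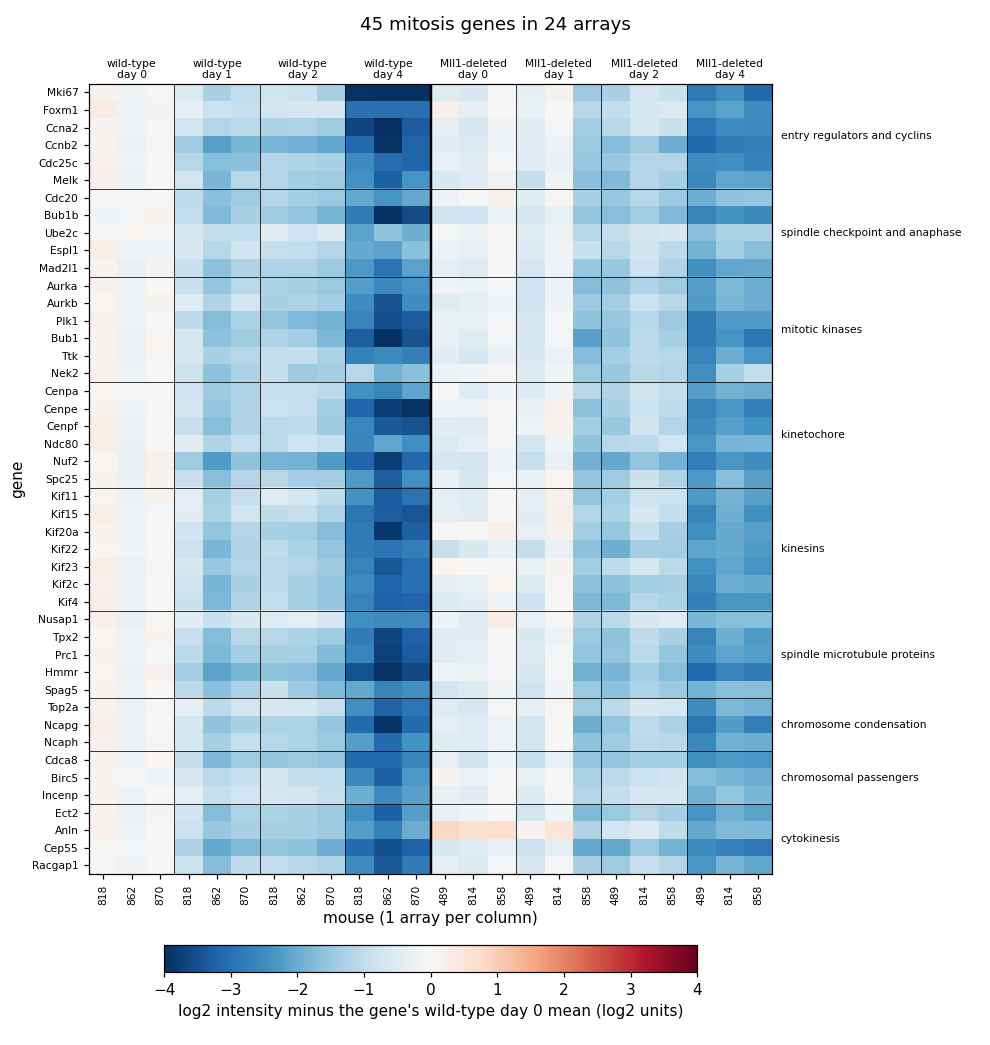
Heat map of the 45 mitosis genes (rows, grouped by role) in the 24 arrays (columns, labelled by mouse). Colour gives the log2 intensity minus the mean of the gene in wild-type day 0 cultures, in log2 units, with colours ending at -4 and 4. Blue deepens from day 1 to day 4 in both genotypes, and the day 1 columns of mice 489 and 814 stay near white.

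Calls rest on limma fits over all genes with Benjamini-Hochberg adjustment, at an adjusted p under 0.05, and ± marks the standard error of a log2 difference. For day 1 minus day 0, 13.8% of all genes were called lower, beside 44 of the 45 mitosis genes. Only Top2a missed the threshold, at -0.73 ± 0.28 (adjusted p = 0.0662). For day 2 minus day 0, 18.0% of all genes were called lower, and 43 of the 45, with Kif11 (-0.75 ± 0.32, adjusted p = 0.0714) and Nusap1 (-0.52 ± 0.23, adjusted p = 0.0897) missing it. For day 4 minus day 0 the shares were 20.4% of all genes and 45 of 45, with adjusted p-values from 3.02e-10 to 0.000337. The 3 day 4 arrays lay below the 3 day 0 arrays in 45 of 45 genes, against 24.5% of all genes. Without mouse 870, 28 genes were called on day 1, and on day 4 all 45 were called whichever mouse was left out.

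Mki67 encodes the Ki-67 protein that coats mitotic chromosomes and marks cycling cells. In mice 818, 862 and 870, in this order throughout, its intensity was 1790, 1420 and 1650 on day 0, 1080, 652 and 820 on day 1, 919, 881 and 639 on day 2, and 105, 48.7 and 64.6 on day 4. No other member fell as far, with a log2 difference of -4.55 ± 0.31 by day 4, or 23.4-fold (adjusted p = 3.02e-10). Most of that came late, since the day 1 difference was -0.96 ± 0.31. Foxm1, the forkhead factor that activates G2 and M phase genes, went from 691, 501 and 518 on day 0 to 426, 311 and 298 on day 1 and 334, 364 and 357 on day 2. On day 4 its intensity was 70.8, 69.5 and 70.2, closely alike in the 3 mice and below every earlier array (-3.01 ± 0.21).

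Cyclin A2, the product of Ccna2, acts in S phase and at the entry into mitosis. Ccna2 read 1930, 1570 and 1830 on day 0, 1050, 787 and 838 on day 1, 732, 756 and 662 on day 2, and 138, 75.6 and 178 on day 4. Its fall by day 4 was 14.4-fold (-3.85 ± 0.27). Ccnb2 encodes cyclin B2, a partner of the kinase Cdk1 in mitosis. It read 1780, 1360 and 1690 on day 0, 602, 356 and 453 on day 1, 448, 420 and 379 on day 2, and 184, 103 and 175 on day 4. Ccnb2 thus took a large step early (-1.80 ± 0.26 on day 1, adjusted p = 2.25e-05), the largest day 1 difference among the 45, and reached -3.42 ± 0.26 by day 4. The other regulators of mitotic entry, the phosphatase gene Cdc25c and the kinase gene Melk, fell as well, and the 6 genes of this role ranged from -4.55 to -2.68 by day 4.

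**Figure D2:**
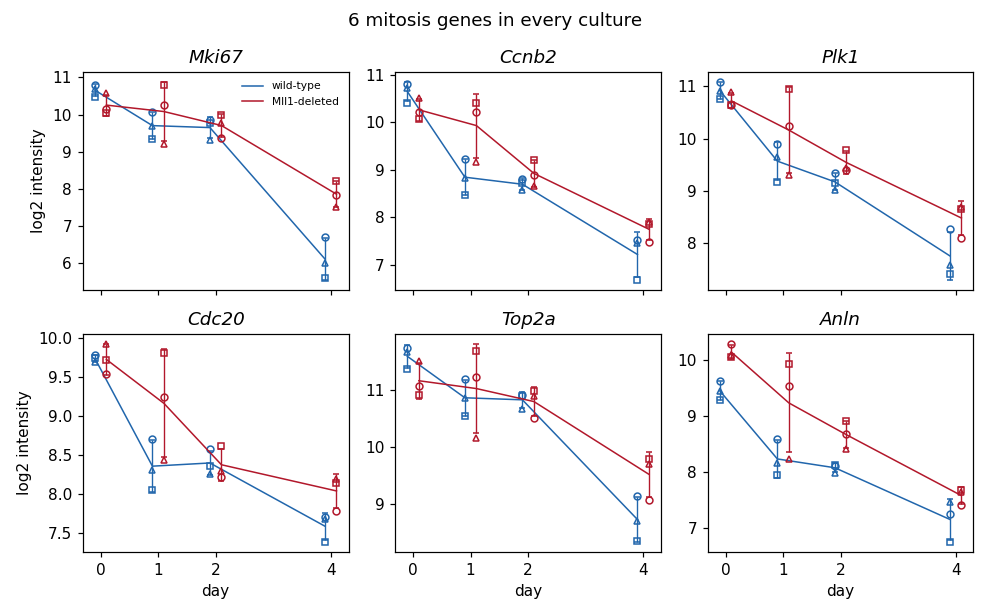
Log2 intensity of 6 mitosis genes (vertical axis) by day (horizontal axis). Symbols are single cultures, with circles for mice 818 and 489, squares for 862 and 814, and triangles for 870 and 858, and lines and bars give the mean and SD of 3 mice in wild-type (blue) and Mll1-deleted (red) cultures. In wild-type the lines drop by day 1, are nearly level to day 2 and drop again, and the red bars are widest on day 1.

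The mitotic kinases fell in all 6 cases by day 4, between -3.82 and -1.56. Plk1, which drives mitotic entry, spindle assembly and cytokinesis, read 2180, 1740 and 1930 on day 0, 950, 580 and 802 on day 1, 653, 570 and 521 on day 2, and 311, 171 and 192 on day 4 (-3.16 ± 0.28). Aurkb, the kinase of the chromosomal passenger complex, read 965, 824 and 1020 on day 0, 654, 402 and 562 on day 1, 380, 407 and 365 on day 2, and 168, 83.4 and 166 on day 4 (-2.82 ± 0.26). Bub1, a checkpoint kinase of the kinetochore, read 735, 573 and 712 on day 0, 414, 217 and 248 on day 1, 287, 257 and 194 on day 2, and 68.8, 25.8 and 59.3 on day 4. Its fall of 14.2-fold (-3.82 ± 0.38) was among the 3 largest with Mki67 and Ccna2. Nek2, a kinase that splits the centrosomes, fell little in the second step. It read 709, 569 and 634 on day 0, 347, 204 and 265 on day 1, 328, 232 and 248 on day 2, and 289, 173 and 199 on day 4. Its day 2 and day 4 values overlapped, although each mouse was lower on day 4 than on day 2. Its difference by day 4 was the smallest of the 45 (-1.56 ± 0.31).

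At the checkpoint that holds anaphase, Cdc20, the activator of the anaphase-promoting complex (APC/C), read 877, 851 and 827 on day 0, 417, 265 and 317 on day 1, 380, 328 and 306 on day 2, and 208, 167 and 204 on day 4. Most of its difference of -2.15 ± 0.23 was present on day 1 (-1.38 ± 0.23). Espl1, the separase that cuts cohesin, and Ube2c, a ubiquitin-conjugating enzyme of the APC/C, had small differences by day 4 for this set (-1.95 ± 0.18 and -1.90 ± 0.18). Of the kinetochore genes, Cenpf read 800, 584 and 680 on day 0, 363, 208 and 295 on day 1, 323, 334 and 247 on day 2, and 112, 66.2 and 61.2 on day 4 (-3.15 ± 0.30). Ndc80, whose product binds microtubule ends, read 419, 288 and 342 on day 0, 256, 150 and 182 on day 1, 164, 201 and 181 on day 2, and 56.0, 82.0 and 63.1 on day 4 (-2.38 ± 0.26). For both genes, as for all 45 members, every later wild-type array lay below the lowest wild-type day 0 array. Nuf2, the partner of Ndc80, fell early, at -1.78 ± 0.29 on day 1.

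Among the motors, Kif11, which pushes the spindle poles apart, read 788, 646 and 815 on day 0, 574, 294 and 391 on day 1, 518, 459 and 366 on day 2, and 143, 75.0 and 96.0 on day 4 (-2.89 ± 0.32). The 7 kinesins lay close together by day 4, from -3.31 to -2.84. Tpx2, which nucleates spindle microtubules and activates Aurora A, read 1880, 1560 and 1910 on day 0, 930, 533 and 819 on day 1, 803, 740 and 666 on day 2, and 253, 137 and 187 on day 4 (-3.26 ± 0.27). Hmmr, another spindle protein, was among the 3 largest day 1 differences (-1.79 ± 0.30), while Nusap1 had the smallest (-0.64 ± 0.23, adjusted p = 0.0476). After quantile normalization Nusap1 and Kif11 were not called on day 1 (adjusted p = 0.0677 and 0.0559). Top2a, the topoisomerase that untangles sister chromatids, read 3390, 2630 and 3240 on day 0, 2320, 1490 and 1850 on day 1, 1930, 1900 and 1620 on day 2, and 562, 326 and 417 on day 4 (-2.85 ± 0.28). Its day 1 values lay below all day 0 values, although the test was not passed.

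The cytokinesis genes Ect2, Anln, Cep55 and Racgap1 ranged from -3.29 to -2.29 by day 4. Anln, the anillin of the cleavage furrow, read 788, 624 and 696 on day 0, 388, 247 and 286 on day 1, 278, 281 and 253 on day 2, and 152, 108 and 177 on day 4. A dimmer probe set that also carries the symbol Anln alone, with a mean intensity of 40.5, differed by 0.16 on day 1 and by -0.004 on day 4, so the Anln values here are those of the brighter probe set. The chromosomal passengers Birc5, Cdca8 and Incenp fell in all 3 cases, from -2.96 to -2.22.

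From day 1 to day 2 no mitosis gene was called by limma in wild-type cultures, and 0 had an unadjusted p under 0.05, while 2.68% of all genes were called lower and 2.28% higher. The members lay between -0.46 (Aurkb) and 0.29 (Cdc25c), with 30 below 0 and 15 above. From day 2 to day 4, 44 of the 45 were called lower, against 7.2% of all genes, with a median of -1.59. With the mean of both its probe sets Anln was not called (adjusted p = 0.093). The largest differences were those of Mki67 (-3.54 ± 0.31), Cenpe (-2.57 ± 0.30), a kinesin of the kinetochore, and Ccna2 (-2.54 ± 0.27). Nek2 was the exception, at -0.31 ± 0.31 (adjusted p = 0.613). Over these days, markers of other cell types also moved. Of 6 oligodendrocyte precursor markers, Olig1 (-1.84) and Olig2 (-2.29) fell by day 4 while Pdgfra (2.97), Gpr17 (1.52) and Sox10 (0.76) rose. Their summed intensity, carried by Olig1 and Olig2, was 5680 to 5900 on day 0 and 1860 to 2460 on day 1. The summed intensity of 6 neuroblast markers was 1570 to 2030 on day 0, 8480 to 12000 on day 2 and 5160 to 6720 on day 4, and all 6 rose by day 4. Endothelial and pericyte markers summed to 312 to 334 on day 0 and 588 to 621 on day 4. Of these, Pdgfrb (1.85) and Kdr (0.65) rose and Rgs5 (-0.47) fell. Fibroblast markers summed to 366 to 386 and 889 to 957, with Pdgfra alone called. Of the stem cell markers, Nes (-1.18) and Fabp7 (-1.40) fell, Gfap (1.23), Prom1 (1.21) and Sox2 (0.31) rose, and the rest were not called. Their part in the mitosis results was not tested.

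In the cultures labelled Mll1-deleted the median fall by day 4 was smaller, and on day 1 their 3 mice lay far apart. By day 4 all 45 mitosis genes were lower than on day 0, with a median of -1.92, or 3.78-fold. On day 1 the median of the set relative to day 0 of the same mouse was -0.25 for mouse 489, whereas mouse 814 had 0.36 and mouse 858 had -1.46. In mouse 814, 44 of the 45 genes were above and 1 was below its own day 0 value, beside 55.0% of all genes below. In mouse 489, 40 were below, beside 55.8% of all genes, and in mouse 858, all 45 were, beside 44.9%. In wild-type mice the day 1 medians were -0.94 (818), -1.43 (862) and -1.22 (870). The median of all genes stayed between -0.04 and 0.07 in every culture.

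**Figure D3:**
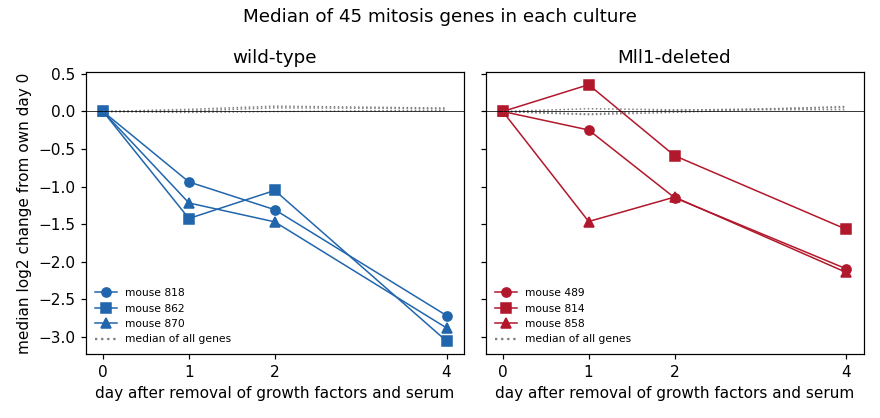
Median log2 change of the 45 mitosis genes from day 0 of the same mouse (vertical axis, log2 units) by day (horizontal axis), 1 line per mouse. Dotted grey lines give the median of all genes, which stays near 0. The wild-type lines run together, and the Mll1-deleted lines spread on day 1 from -1.46 to 0.36 and come closer by day 2.

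The spread showed in every member. On day 1 the SD over the 3 mice was larger in Mll1-deleted than in wild-type cultures for 45 of the 45 genes, against 55.2% of all genes, with a median SD of 0.77 against 0.38 on the log2 scale. Mouse 814 was highest and mouse 858 lowest of the 3 in all 45. For comparison, on day 1 mouse 818 was the highest wild-type mouse in 45 of 45 and mouse 862 the lowest in 43. By day 4 the SD was larger in Mll1-deleted cultures for 9 of the 45 genes, against 41.6% of all genes. The summed oligodendrocyte precursor markers on day 1 were 6110 in mouse 489, 6030 in 814 and 5440 in 858, and the summed neuroblast markers were 3270, 3210 and 3380. In the same order of mice, the summed neural stem cell markers were 36200, 32400 and 35000, the fibroblast markers 1800, 2710 and 1760, and the 6 endothelial and pericyte markers 342, 452 and 384. Mouse 814 was thus lowest in the first of these sums and highest in the other two. The 7 microglial markers summed to 258, 246 and 273. The part of these markers in the spread was not tested.

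With this spread, 2 of the 45 genes were called lower on day 1, against 6.52% of all genes. They were Anln (-0.91 ± 0.27, adjusted p = 0.0310) and Aurka (-0.75 ± 0.24, adjusted p = 0.0431), the Aurora kinase of the spindle poles. With the mean of both its probe sets Anln was not called (-0.47, adjusted p = 0.0648). The median was -0.48. Without mouse 814 the count was 13 and without mouse 862 it was 1, while without mouse 489, 858, 818 or 870, or with only the arrays compared, it was 0. The median moved to 0.06 without mouse 858 and to -0.84 without mouse 814. By day 2, 36 genes were called lower than on day 0, against 13.9% of all genes, with a median of -0.96. The smallest difference was that of Top2a (-0.36 ± 0.28, adjusted p = 0.418), and the largest were those of Hmmr (-1.51 ± 0.30), Anln (-1.48 ± 0.27) and Cdc20 (-1.35 ± 0.23). Without mouse 489 the count on day 2 was 13.

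From day 1 to day 2, limma called 0 members in Mll1-deleted cultures, 18 had an unadjusted p under 0.05, and all 45 estimates lay below 0 with a median of -0.50. The mice differed here as well. Relative to day 0 of the same mouse, the median of the set went from -0.25 to -1.15 in mouse 489. It went from 0.36 to -0.59 in mouse 814, and rose from -1.46 to -1.14 in mouse 858. Of all genes 0.261% were called lower and 0.128% higher. With the mouse as a block the count was 2, and without mouse 858 it was 8. From day 2 to day 4, 35 members were called lower, against 6.5% of all genes, with a median of -0.99, and 11 were without mouse 489. The largest of these were Mki67 (-1.85 ± 0.31), Ccna2 (-1.74 ± 0.27) and Foxm1 (-1.58 ± 0.21), and the smallest differences were those of Spag5, Nek2 and Cdc20 (-0.31, -0.31 and -0.34). For day 4 minus day 0, 15.7% of all genes were called lower, beside 45 of 45 members, a count that leaving out any single mouse did not change. The largest of the day 4 falls were those of Hmmr (-2.73 ± 0.30), Anln (-2.56 ± 0.27) and Ccnb2 (-2.51 ± 0.26), and the smallest was that of Spag5 (-1.30 ± 0.26).

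In mice 489, 814 and 858, in this order, Mki67 read 1140, 1050 and 1520 on day 0, 1220, 1760 and 591 on day 1, 655, 1010 and 878 on day 2, and 228, 297 and 184 on day 4. Foxm1 read 653, 434 and 553 on day 0, 459, 569 and 261 on day 1, 291, 345 and 374 on day 2, and 109, 129 and 100.0 on day 4. Mouse 814 stood above its day 0 value on day 1 for both genes, and mouse 858 below. Ccna2 read 1350, 1120 and 1630 on day 0, 1260, 1710 and 691 on day 1, 814, 1090 and 958 on day 2, and 241, 312 and 300.0 on day 4. Ccnb2 read 1180, 1070 and 1460 on day 0, 1190, 1360 and 572 on day 1, 477, 593 and 405 on day 2, and 180.0, 231 and 240.0 on day 4. By day 2 the cyclin B2 values of all 3 mice lay below every day 0 value, which held for 44 of the 45 members, Ccna2 among them.

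Of the kinases, Plk1 read 1600, 1600 and 1900 on day 0, 1210, 1970 and 637 on day 1, 681, 886 and 694 on day 2, and 276, 404 and 413 on day 4. Aurkb read 660.0, 724 and 858 on day 0, 531, 815 and 340.0 on day 1, 363, 513 and 428 on day 2, and 198, 265 and 238 on day 4. Bub1 read 557, 480.0 and 653 on day 0, 415, 638 and 149 on day 1, 219, 324 and 266 on day 2, and 95.0, 130.0 and 89.6 on day 4. In mouse 858 Plk1, Aurkb and Bub1 were all lower on day 1 than on day 2, as was the median of the set. Cdc20 read 740.0, 837 and 968 on day 0, 603, 896 and 345 on day 1, 298, 390.0 and 313 on day 2, and 220.0, 282 and 292 on day 4, so that most of its fall was complete on day 2.

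The kinetochore gene Cenpf read 496, 477 and 666 on day 0, 608, 755 and 265 on day 1, 238, 397 and 302 on day 2, and 120.0, 152 and 131 on day 4. Ndc80 read 238, 267 and 328 on day 0, 207, 305 and 113 on day 1, 161, 167 and 204 on day 2, and 69.4, 94.8 and 98.3 on day 4. For Cenpf mice 489 and 814 were both above their day 0 values on day 1, and for Ndc80 only mouse 814 was. Kif11 read 573, 522 and 736 on day 0, 570.0, 837 and 250.0 on day 1, 289, 420.0 and 411 on day 2, and 151, 201 and 165 on day 4. Tpx2 read 1270, 1320 and 1760 on day 0, 1160, 1620 and 641 on day 1, 576, 875 and 719 on day 2, and 279, 454 and 368 on day 4. These spindle genes follow the same order of mice on day 1. Top2a read 2140, 1910 and 2910 on day 0, 2400, 3270 and 1140 on day 1, 1460, 2010 and 1900 on day 2, and 537, 887 and 829 on day 4, and on day 2 mouse 814 was still above its own day 0. Anln read 1250, 1060 and 1090 on day 0, 747, 970.0 and 302 on day 1, 408, 481 and 343 on day 2, and 170.0, 206 and 201 on day 4, and was below its day 0 value in all 3 mice on day 1.

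Compared between genotypes, 3 mitosis genes were called higher in Mll1-deleted cultures on day 1, not far above the share of all genes (3.61%). On day 4, 8 were called higher, against 3.73% of all genes, and none passed the test in growing cultures or on day 2. On day 0, limma called 0 of 45, 3 had an unadjusted p under 0.05, and the median was -0.29, with 42 estimates below 0. Of all genes 4.71% were called lower and 5.41% higher. The estimates ran from -0.63 ± 0.29 for Bub1b, a spindle checkpoint protein, to 0.70 ± 0.27 for Anln. The 3 mice did not overlap between genotypes in 6 genes that were lower and 1 that was higher, against 14.4% and 11.8% of all genes. The fibroblast markers differed on this day, with a summed intensity of 366 to 386 in wild-type and 725 to 3590 in Mll1-deleted cultures over 5 markers, 1 of them near the floor. Col1a1 (1.73 ± 0.43) and Col1a2 (2.44 ± 0.58) were called higher. The genotypes were also apart in the sums of the neural stem cell markers (35800 to 38700 in wild-type and 29000 to 35000 in Mll1-deleted), the neuroblast markers (1570 to 2030 and 2800 to 4320) and the oligodendrocyte precursor markers (5680 to 5900 and 3420 to 5270). Within each list the members went both ways. Of the stem cell markers, Fabp7 (-0.75) and Slc1a3 (-0.72) were called lower and Prom1 (0.96) higher. Of the neuroblast markers, Stmn2 (2.72), Tubb3 (1.34) and Cd24a (0.66) were called higher, while Dcx (-0.53) and Dlx2 (-0.48) lay below 0 without a call. Of the precursor markers, only Olig2 (-0.81) was called, with Olig1 at -0.52 and Pdgfra at 0.92. The sums of microglial markers (240 to 270 and 247 to 260) and of endothelial and pericyte markers (312 to 334 and 324 to 428) overlapped. The part of these markers in the mitosis values was not tested.

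On day 1 the median genotype difference was 0.46, with 44 of 45 estimates above 0, and 3 genes were called higher, against 3.61% of all genes. They were Ccnb2 (1.09 ± 0.26, adjusted p = 0.0103), Anln (1.00 ± 0.27, adjusted p = 0.0239) and Cdc20 (0.80 ± 0.23, adjusted p = 0.0306). Their groups of mice overlapped, as did those of all 45 genes, whereas 8.6% of all genes had groups apart in that direction. The dimmer Anln probe set differed by -0.16, and with the mean of both Anln was not called (adjusted p = 0.139). Without mouse 858, 32 genes were called higher. Without mouse 489, 814, 862 or 870 the count was 0, as it was when only the arrays of day 1 were fitted. On day 2, limma called 0 genes, 1 had an unadjusted p under 0.05, the median was 0.004, and 4.73% of all genes were called lower and 4.01% higher. The estimates on that day lay between -0.28 (Kif22) and 0.59 (Anln).

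Markers of other cells also differed on day 1. The oligodendrocyte precursor markers summed to 1860 to 2460 in wild-type and 5440 to 6110 in Mll1-deleted cultures, with Olig1 (1.63 ± 0.18), Olig2 (1.12 ± 0.16) and Pdgfra (1.96 ± 0.31) called higher. The rest of this list, Cspg4 (0.08), Sox10 (0.05) and Gpr17 (-0.51), was not called. The fibroblast list, which also holds Pdgfra, summed to 502 to 590 and 1760 to 2710. Of that list Col1a2 was called higher too (1.98 ± 0.58), whereas Col1a1, Dcn and Lum were not called. The endothelial and pericyte markers summed to 553 to 732 and 342 to 452, where Pdgfrb alone was called (-1.05 ± 0.24). The neuroblast markers summed to 3490 to 5020 and 3210 to 3380, with 3 of 6 called lower, among them Dcx, a protein of migrating neuroblasts (-2.54 ± 0.53), and 1 called higher. The neural stem cell markers summed to 36900 to 39200 and 32400 to 36200, while Nes, the nestin of neural stem cells, was called higher (1.43 ± 0.19). The microglial markers overlapped, at 269 to 278 and 246 to 273. The part of these markers in the day 1 results was not tested.

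On day 4 the median difference was 0.70, or 1.62-fold, with 44 of 45 estimates above 0, and 8 genes were called higher, against 3.73% of all genes. Mki67 differed by 1.75 ± 0.31, or 3.36-fold (adjusted p = 0.000789), with 105, 48.7 and 64.6 in wild-type and 228, 297 and 184 in Mll1-deleted cultures. Ccna2 differed by 1.20 ± 0.27, or 2.30-fold (adjusted p = 0.00801), and both genes were higher in each Mll1-deleted mouse than in any wild-type mouse. The others were Kif20a (1.09 ± 0.28, adjusted p = 0.0197) and Prc1 (0.97 ± 0.29, adjusted p = 0.0457), a motor and a bundling protein of the central spindle, Cenpe (1.05 ± 0.30, adjusted p = 0.0330), Bub1b (0.95 ± 0.29, adjusted p = 0.0486), Tpx2 (0.95 ± 0.27, adjusted p = 0.0342) and Birc5 (0.86 ± 0.24, adjusted p = 0.0332), the survivin of the passenger complex. Kif20a read 145, 69.9 and 106 in wild-type and 185, 252 and 224 in Mll1-deleted cultures, and Cenpe read 48.4, 32.1 and 28.2 and then 68.7, 87.1 and 65.5. The groups did not overlap in 26 of the 45 genes, against 12.9% of all genes, all of them higher in Mll1-deleted cultures. Bub1 had the third largest estimate (1.13 ± 0.38) without passing the test (adjusted p = 0.0816).

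**Figure D4:**
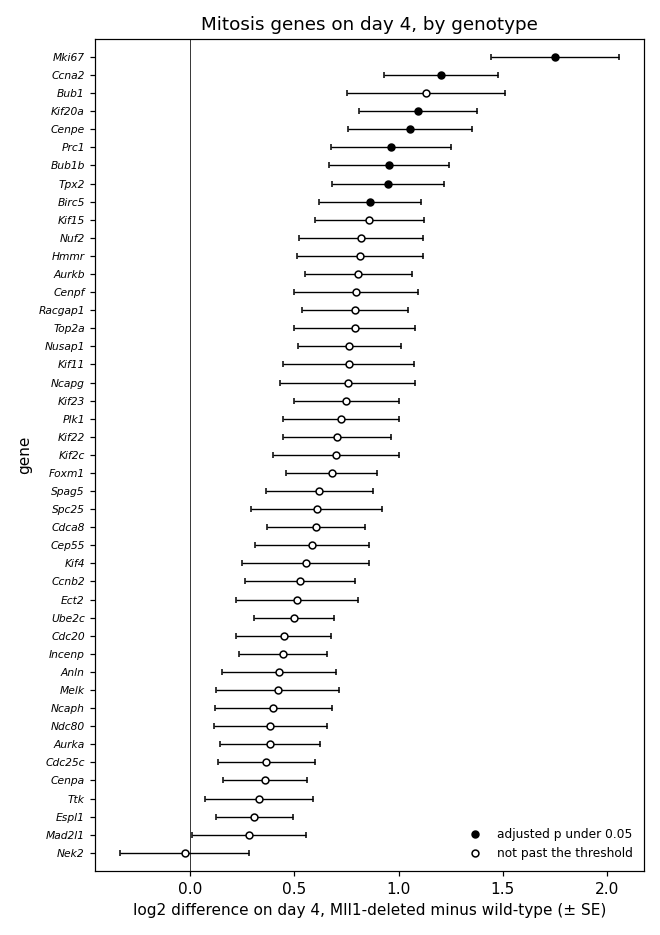
Log2 difference on day 4, Mll1-deleted minus wild-type (horizontal axis, log2 units), for the 45 mitosis genes (vertical axis, ordered by the difference). Points are estimates from 3 mice a group and bars their SE, and filled points passed an adjusted p under 0.05. The 8 filled points lie between 0.86 and 1.75, and Nek2 alone lies below 0.

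The lowest day 4 differences were those of Nek2 (-0.02 ± 0.31), Mad2l1, a checkpoint protein (0.28 ± 0.27), and Espl1 (0.31 ± 0.18). Without mouse 858 the count was 18, after quantile normalization it was 13, and it was 4 without mouse 489, 3 without 870, 2 without 814 and 1, Mki67, without 862. With only the day 4 arrays fitted, 11 genes were called, but Bub1b, Tpx2, Prc1 and Birc5 of the 8 were not (adjusted p = 0.0953, 0.0557, 0.0542 and 0.0594). With the arrays shifted to the same median 6 were called, without Bub1b (adjusted p = 0.0595) and Prc1 (adjusted p = 0.059), and without the mouse block Prc1 missed the threshold (adjusted p = 0.0501). On day 4, mouse 862 was the lowest wild-type mouse in 37 of the 45 genes, and mouse 489 was the lowest Mll1-deleted mouse in 37. Markers of other cells differed on the same day. The 6 oligodendrocyte precursor markers, none near the floor, summed to 2220 to 2540 in wild-type and 5660 to 7280 in Mll1-deleted cultures, the 5 fibroblast markers, among them Pdgfra again, to 889 to 957 and 2000 to 2730, the 6 endothelial and pericyte markers to 588 to 621 and 362 to 442, and the 6 neuroblast markers to 5160 to 6720 and 2930 to 6620. The 7 microglial markers, 2 of them near the floor, summed to 248 to 278 and 257 to 280. The 8 neural stem cell markers overlapped as well, at 29000 to 36900 and 30800 to 37900, but Nes was called higher (0.73 ± 0.19). It was the only marker of that list called. Of the neuroblast markers only Nrxn3 was called, and it was lower (-1.03 ± 0.27). Of the oligodendrocyte precursor markers, 5 of 6 were called higher, and Olig1 averaged 1090 and 2580 and Pdgfra 579 and 1700. Pdgfra was the only fibroblast marker called, whereas Col1a1 (154 and 221, adjusted p = 0.595), Col1a2 (adjusted p = 0.262), Dcn (adjusted p = 0.244) and Lum (adjusted p = 0.108) were not. Of the endothelial and pericyte markers only Pdgfrb was called (353 and 150, -1.27 ± 0.24), and the other 5 lay between -0.07 and 0.11. Their part in the mitosis results was not tested.

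Averaged over the 4 days, 1 member was called higher in Mll1-deleted mice, against 3.59% of all genes. It was Anln (0.68 ± 0.15, adjusted p = 0.0275). The count was 0 without mouse 489, 814, 818, 862 or 870 and when both Anln probe sets were averaged, and 4 without mouse 858. The median over the set was 0.20.

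The change from day 0 was also compared between genotypes, a comparison that shares its day 0 arrays with those above. By day 1 the change was less negative in Mll1-deleted cultures for all 45 estimates, with a median difference of 0.71, and Ccnb2 passed the test (1.47 ± 0.37, adjusted p = 0.0356), against 1.28% of all genes. In Ccnb2 the change was -1.80 in wild-type and -0.33 in Mll1-deleted cultures. Without mouse 858, 26 members were called, and without any of the other 5 mice, or with only the arrays compared, 0. By day 2, limma called 0 members, 1 had an unadjusted p under 0.05, and the median difference was 0.29, while 2.62% of all genes were called lower and 2.18% higher.

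By day 4, 4 members passed the test for a smaller fall in Mll1-deleted cultures, against 3.27% of all genes. Mki67 fell by 4.55 in wild-type and by 2.39 in Mll1-deleted cultures on the log2 scale, a difference of 2.15 ± 0.44 (adjusted p = 0.00474). Ccna2 differed by 1.59 ± 0.38 (adjusted p = 0.0138), Bub1b by 1.58 ± 0.41 (adjusted p = 0.0222) and Kif22, a chromosome arm kinesin, by 1.31 ± 0.36 (adjusted p = 0.0342). Bub1b read 1050, 1090 and 1230 on day 0 and 162, 64.5 and 93.7 on day 4 in wild-type, and 649, 629 and 945 and then 176, 215 and 188 in Mll1-deleted cultures, so it was lower at the start and higher at the end in the latter. Kif22 read 573, 507 and 550.0 and then 77.6, 70.0 and 80.2 in wild-type, and 287, 358 and 441 and then 125, 133 and 114 in Mll1-deleted cultures. The median difference was 0.92, with Anln alone below 0 (-0.27 ± 0.39). With the mouse as a block 14 members were called, and 17 with only the arrays compared. Without mouse 858 the count was 22, without mouse 818 it was 2, and without mouse 489, 814, 862 or 870 it was 1. None of the 4 members, Mki67 included, was called whichever mouse was left out.

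On day 4 the genes held a median of 13.5% of their day 0 level in wild-type cultures, from 4.28% (Mki67) to 33.9% (Nek2). In Mll1-deleted cultures the median was 26.4%, from 15.0% (Hmmr) to 40.7% (Spag5, a spindle protein). Mki67 kept 19.0% there. These shares use the group means of each gene and follow from the differences above.

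Cultures of different days were also set side by side, with Mll1-deleted day 2 against wild-type day 1. Limma called 0 members, 0 had an unadjusted p under 0.05, and the median difference was -0.06, while 5.32% of all genes were called lower and 3.06% higher. The estimates ran from -0.30 ± 0.26 (Aurkb) to 0.43 ± 0.27 (Anln). A difference that misses the threshold does not show that the levels were alike. Mll1-deleted day 4 against wild-type day 2 gave 32 members called lower, against 6.55% of all genes, with a median of -0.95. The largest were Mki67 (-1.79 ± 0.31), Foxm1 (-1.65 ± 0.22) and Cenpe (-1.52 ± 0.30), and the smallest estimates were those of Nek2 (-0.33), Cdc20 (-0.36) and Spag5 (-0.39). The count was 14 without mouse 489, 18 without 818 and 19 without 862.

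The members differed in the share of their day 4 change that was reached earlier. In wild-type cultures the share of the day 4 log2 change already present on day 1 had a median of 42.7%. It was lowest for Mki67 (21.0%), Foxm1 (24.2%) and Kif15 (25.4%), a spindle kinesin, and highest for Nek2 (80.6%), Cdc20 (64.3%) and Spag5 (55.9%). A share depends on the size of the day 4 change as well as on the day 1 change. That day 4 change was the largest of the 45 for Mki67 and the smallest for Nek2. In single wild-type mice the median share was 35.5% (818), 47.4% (862) and 41.5% (870), and Nek2 was the highest member in each of the 3. In Mll1-deleted cultures the median share by day 2 was 48.8%, and by day 1 the 3 mice gave 12.3% (489), -22.0% (814) and 69.6% (858). By day 2 it was lowest for Top2a (22.3%) and highest for Cdc20 (80.1%). Across the 45 genes, the wild-type share by day 1 and the Mll1-deleted share by day 2 had a Pearson r of 0.846 and a Spearman rho of 0.805. With the wild-type share by day 2 in place of day 1 they were 0.829 and 0.819, about as high. This is a description over genes that share the same arrays, although the 2 axes come from different mice. By role, the median wild-type share by day 1 ran from 32.6% for the chromosomal passengers to 49.3% for the cytokinesis genes.

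**Figure D5:**
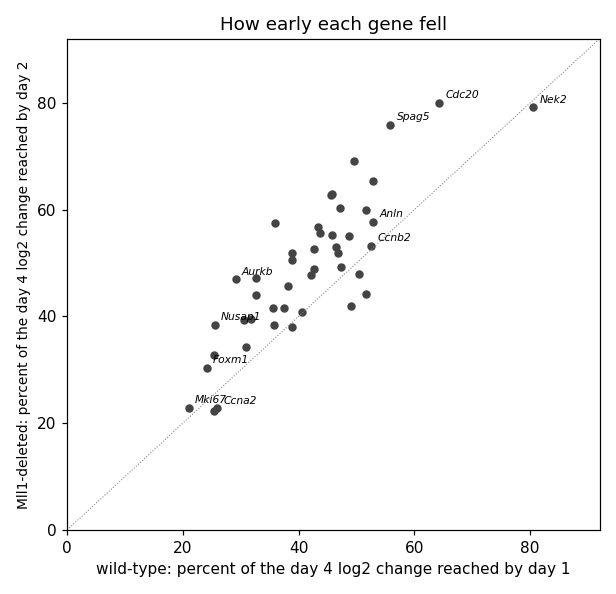
Percent of the day 4 log2 change reached by day 1 in wild-type cultures (horizontal axis) and by day 2 in Mll1-deleted cultures (vertical axis). Each point is 1 of the 45 mitosis genes, from group means of 3 mice, and the dotted line marks equal shares. Genes with a low share, such as Mki67 at 21.0%, sit at the lower left, and Cdc20 and Nek2 at the upper right.

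Other genes of the pathway give the setting of these values, in lists chosen by function. Of 63 other measured mitosis genes, 61 were called lower by day 4 in wild-type cultures, with a median of -2.34. The smallest p-values were those of Cenpm (-2.70 ± 0.21), Spc24 (-2.34 ± 0.18), Tacc3 (-2.68 ± 0.21) and Cdca3 (-2.96 ± 0.24). Of 42 measured genes of S phase, 42 were called lower, with a median of -1.74. Among them Ccne1 (-2.20 ± 0.16), Rrm2 (-3.38 ± 0.27), Mcm10 (-2.07 ± 0.17) and Pole2 (-2.48 ± 0.22) had the smallest p-values. Of all genes 20.4% were called lower in this comparison, and the median of all genes was 0.05. Of 23 genes of APC/C subunits and cohesin, 14 were called lower and 2 higher, with a median of -0.47. Here Anapc15 (-1.39 ± 0.12) and the cohesin gene Rad21 (-1.11 ± 0.12) had the smallest p-values. Of 12 genes of the DREAM and MuvB complexes, 6 were called lower and 1 higher, with a median of -0.37. Lin9 (-1.39 ± 0.14), Tfdp1 (-1.09 ± 0.13) and Rbl1 (-1.92 ± 0.23) fell, and Lin52 rose (1.03 ± 0.11).

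On day 4 between genotypes, 2 of the 63 other mitosis genes and 2 of the 42 S phase genes were called higher in Mll1-deleted cultures, with medians of 0.41 and 0.24, beside 3.73% of all genes called higher and a median of 0.02 for all genes. Both counts are near that share. On day 1, 5 of the 63 and 0 of the 42 were called higher by limma, beside 3.61% of all genes, with medians of 0.29 and -0.05. Of the 42, 2 had an unadjusted p under 0.05, Ccne1 at 0.45 and Cdc6 at -0.40.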

How the data were processed

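RNA of 24 cultures (6 mice, 4 days) was labelled with biotin and hybridised to Affymetrix arrays. The deposited table gives 1 intensity per probe set and array, made by the authors with RMA in Affymetrix Power Tools, with genome build mm9, per the submitters' processing notes (no versions named there). RMA values are usually log2, whereas the deposited intensities run from 3.48 to 30298 and were read as linear, an inference from the values, so log2 was taken. A companion table deposited by the authors names genes and gives a cross-hybridisation score whose codes it does not explain. Of 28350 probe sets, 22232 carry 1 symbol, and the brightest probe set stood for a gene, which left 21072 genes. A group mean under the average of its arrays' lower quartiles was called near the floor. The number of arrays limits the precision.

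Fits used limma 3.58.1 in R 4.3.3. Changes over days and differences in change came from 8 group means over all 24 arrays, genotype comparisons on a day treated the mouse as random (consensus correlation 0.165), and the mean over days used 6 mouse means. A total of 20 comparisons were made, 2-sided, with Benjamini-Hochberg adjustment over all genes. Arrays of a mouse share its number because they come from the same animal, and their deviations from the group means had a median correlation of 0.216 in wild-type and 0.31 in Mll1-deleted cultures. Alternatives were array scaling, probe set and gene filters, the variance model, the arrays fitted, the mouse block and leaving out each mouse. The fit was tested on simulated data. The 45 genes and all lists were chosen with earlier results of these data known. Values of every array are given for 14 genes chosen by role, and otherwise the 3 highest and 3 lowest members of a comparison, exceptions to its majority and the 4 context genes of smallest p are named. Nek2, Bub1b, Kif22, Kif20a and Cenpe were given by array after their values were seen. Figures were drawn with matplotlib 3.10.9.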

Additional observations from a re-analysis of the deposited data

Results flagged for a closer look

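The change from day 0 differed between genotypes, by the test of that difference, in 5 results. By day 1 the difference for Ccnb2 was 1.47 (log2, Mll1-deleted minus wild-type, adjusted p = 0.0356). By day 4 it was 2.15 for Mki67 (adjusted p = 0.00474), 1.59 for Ccna2 (adjusted p = 0.0138), 1.58 for Bub1b (adjusted p = 0.0222) and 1.31 for Kif22 (adjusted p = 0.0342). All are limma tests over 21072 genes. None of the 5 was called under every alternative run.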

How the results depend on the processing

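All 45 members were called lower on day 4 in both genotypes under every alternative run, and no called difference reversed. Of 4800 repeats of a call, 306 missed the threshold. With only the arrays compared, members called numbered 0 for Mll1-deleted day 1 minus day 0, 1 lower and 1 higher for the genotypes on day 0, 0 higher on day 1 and 1 higher on day 2, and 0, 1 and 17 for the difference of the changes by days 1, 2 and 4. After quantile normalization 13 were higher on day 4, and with the mean of the probe sets of a gene 0 over the mean of 4 days. With the mouse as a replicate block, 14 members were called for the difference of the changes by day 4 and 2 for Mll1-deleted day 2 minus day 1, and the block moved no other count of members by more than 1.5 times. Leaving out each mouse gave 28 to 45 calls for wild-type day 1, and for Mll1-deleted cultures 0 to 13 (day 1), 13 to 40 (day 2), 0 to 8 (day 2 minus day 1) and 11 to 35 (day 4 minus day 2). Between genotypes it gave 0 to 2 lower and 0 to 1 higher on day 0, and 0 to 32 higher on day 1, 0 to 1 on day 2, 1 to 18 on day 4 and 0 to 4 over the mean. For the difference of the changes it gave 0 to 26 by day 1 and 1 to 22 by day 4, and for Mll1-deleted day 4 minus wild-type day 2 it gave 14 to 37 lower. The median of Mll1-deleted day 1 minus day 0 ran from -0.842 to 0.061 over the same repeats. Fewer arrays were fitted in these repeats; otherwise the cause was not tested. The share of all genes called moved by more than 1.5 times in 77 of 278 repeats. With 3 mice a group, small genotype differences were not resolved.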
